A study of Mus musculus with 19 samples.

Results

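The regions described here are SOX3 ChIP-seq peaks that lay away from genes, were poor in CpG and were called in both replicates of mouse testis. A peak of replicate 1 was a member when a single replicate 2 peak covered at least 50% of its length, when its nearer edge lay more than 2 kb from every start site of a RefSeq curated transcript, when its midpoint lay outside every RefSeq curated gene, and when the ratio of observed to expected CpG in the 500 bp around its midpoint was below 0.6. Of the 58351 peaks of replicate 1, 14638 were covered in replicate 2, 5005 of these lay more than 2 kb from a start site, 2368 of these had a midpoint outside genes, and 2005 of these were CpG-poor. The members were chosen by the peak calls of both replicates and by position and CpG content, so their scores are a description and no test was made of them. The name "intergenic" holds for the curated gene set only: 625 midpoints (31.2% of members) lay in a gene that RefSeq predicts without a curated transcript or that GENCODE lists, and 1380 lay outside every gene of both annotations.

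SOX3 ChIP-seq was made from testis at postnatal day 7, and per the study's methods from seminiferous tubules of pooled mice in 2 independent biological replicates. The replicate 2 list held 38832 peaks. The SOX3 libraries came from testis tissue without sorting for a cell type, so somatic cells lay beside the spermatogonia, and a tissue without SOX3 or an IgG control was not analysed here. SOX3 ChIP-nexus, a variant in which an exonuclease trims the precipitated DNA, was also made in 2 replicates.

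SOX3 is a transcription factor of the SOXB1 family, made by undifferentiated spermatogonia and by neural progenitors. SOX proteins bind the minor groove through an HMG box and bend the DNA, at sites close to the consensus WWCAAWG (W is A or T). Regions away from promoters that transcription factors occupy are often enhancers, which are mostly poor in CpG, whereas most promoters of widely used genes lie in CpG islands.

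The sequences below are the 200 bases around the replicate 1 midpoint of 6 members, on the forward strand of GRCm38 (mm10), with matches to WWCAAWG on either strand in capitals. The first is the member with the best mean rank of the score in both replicates, the second is the only one of the top 10 by that rank with a match in this window, and the others lie nearest to Neurog3, Zbtb16 and Inhbb, genes of spermatogonial progenitors, spermatogonial stem cells and Sertoli cells. All but the first were chosen among members that hold a match, so that the set shows where it lies and not how often it occurs, which was in 20.9% of members by the replicate 1 midpoint. The first held no match in this window. Each is named by its nearest curated gene.
Trappc6b, chr12:59040487-59040686: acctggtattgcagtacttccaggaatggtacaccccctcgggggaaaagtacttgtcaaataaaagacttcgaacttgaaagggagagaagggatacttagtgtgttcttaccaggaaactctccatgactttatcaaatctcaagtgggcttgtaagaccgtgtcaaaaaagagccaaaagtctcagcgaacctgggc
Gm3363, chr2:18766599-18766798: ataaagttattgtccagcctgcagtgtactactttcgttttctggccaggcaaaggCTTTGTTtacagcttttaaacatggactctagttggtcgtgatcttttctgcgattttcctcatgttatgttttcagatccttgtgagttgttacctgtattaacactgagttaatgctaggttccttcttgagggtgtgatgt
Neurog3, chr10:62128916-62129115: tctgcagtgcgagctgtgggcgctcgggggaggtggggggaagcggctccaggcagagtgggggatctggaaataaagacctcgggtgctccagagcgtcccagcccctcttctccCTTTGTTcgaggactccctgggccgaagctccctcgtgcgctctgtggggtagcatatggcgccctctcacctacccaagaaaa
Zbtb16, chr9:48848149-48848348: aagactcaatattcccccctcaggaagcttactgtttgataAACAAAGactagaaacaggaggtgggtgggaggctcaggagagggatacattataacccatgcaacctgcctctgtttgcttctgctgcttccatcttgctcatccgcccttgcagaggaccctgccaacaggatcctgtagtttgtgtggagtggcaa
Zbtb16, chr9:48860243-48860442: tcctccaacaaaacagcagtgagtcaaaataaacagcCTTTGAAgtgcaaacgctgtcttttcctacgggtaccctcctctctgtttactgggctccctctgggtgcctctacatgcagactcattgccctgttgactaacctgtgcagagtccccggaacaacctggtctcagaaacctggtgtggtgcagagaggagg
Inhbb, chr1:119386427-119386626: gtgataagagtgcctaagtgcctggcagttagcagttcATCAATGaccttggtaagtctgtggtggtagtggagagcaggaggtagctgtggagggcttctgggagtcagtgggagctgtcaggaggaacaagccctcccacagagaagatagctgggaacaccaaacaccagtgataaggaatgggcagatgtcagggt

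Members scored above the typical peak of each list but far below the highest. The q score, the authors' FDR-adjusted p-value on a negative log10 scale times 10, had a median of 47.9 in replicate 1 (quartiles 37.1 and 67.8) and of 42.3 in replicate 2 (quartiles 35.5 and 53.2), or 45.1 ± 3.93 (SD, n = 2), where the lists begin at 30 and the median of all peaks was 41.4 in replicate 1 and 39.5 in replicate 2. The q score was 40 or less in replicate 1 for 650 members (32.4%), above 60 in both replicates for 254 and above 100 in both for 42. Only 3 members were among the top 1000 peaks of replicate 1 and 6 among the top 1000 of replicate 2. The log2 ratio of ChIP over input had a median of 2.65 in replicate 1 and 2.52 in replicate 2, and the width a median of 887 bp and 827 bp.

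The order of the members was only partly shared by the replicates. Across the 2005 members, Spearman's rho between the replicates was 0.454 for the q score, 0.146 for the log2 ratio and 0.587 for the width. These points share the peak calls that chose them and are not independent replicates. The score was higher in replicate 1 for 1318 members (65.7%). The midpoints of both calls lay a median of 143 bp apart, and 35.9% of members had them within 100 bp, so that sequence near a midpoint is read with this precision. A replicate 2 peak covered the whole of 284 members, and 6 replicate 2 peaks covered a pair of members each.

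**Figure D1:**
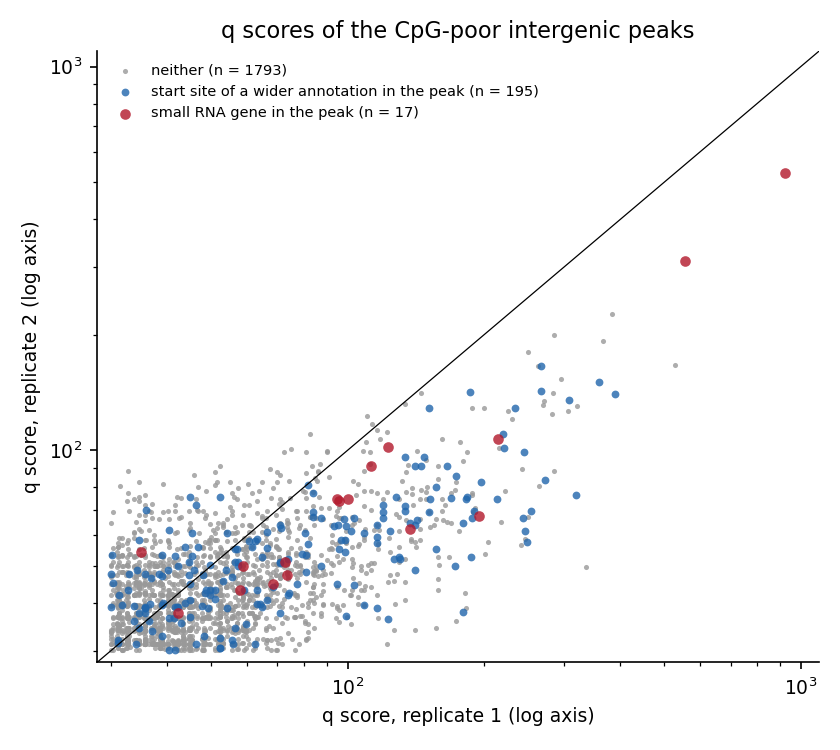
The q score of each of the 2005 members in replicate 1 (horizontal) and replicate 2 (vertical), on log axes, with the line of equal values. Both highest points hold a small RNA gene (red, n = 17), blue points hold a start site of a RefSeq predicted or GENCODE transcript and no small RNA gene (n = 195), and grey points hold neither (n = 1793).

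The members were a small share of the peaks of their kind. Of 16502 CpG-poor intergenic peaks in replicate 1, 12.2% were found in replicate 2, against 25.1% of all replicate 1 peaks. The share was 9.97% for CpG-poor intronic peaks, 39.8% for CpG-rich peaks away from promoters and 59% for promoter peaks. Of the 14497 that were not found, 13265 shared no base with a replicate 2 peak and 1232 shared some but were covered by less than 50%. The share followed the score. In the lowest decile of all replicate 1 peaks by q score, 5.85% of CpG-poor intergenic peaks were found, and in the highest decile 66.2% (49 of 74), where 91.7% of promoter peaks and 93.5% of CpG-rich distal peaks were found. In decile 9, 53.5% of CpG-poor intergenic and 38.8% of CpG-poor peaks in genes were found.

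**Figure D2:**
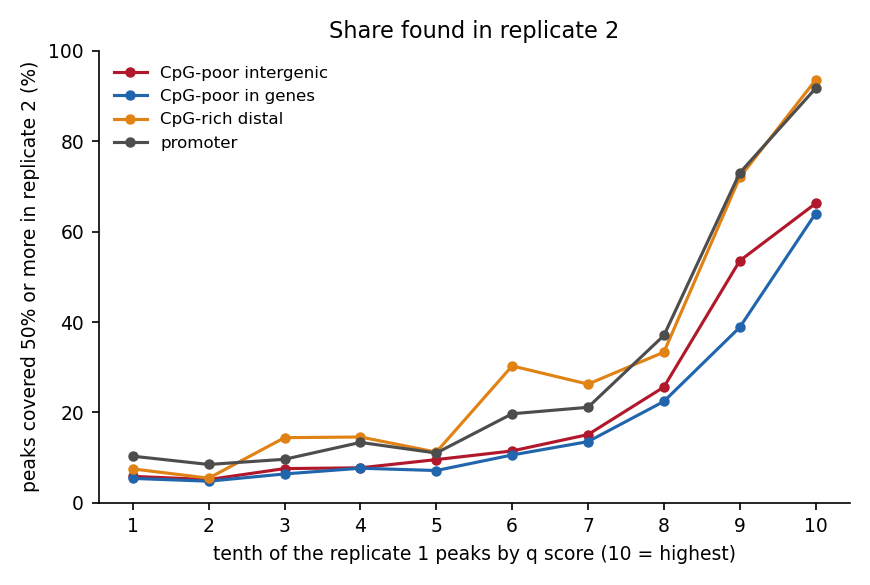
Share of replicate 1 peaks covered 50% or more by a replicate 2 peak, for each decile of the list by q score and each class of peak. All classes lie at or below 14.6% in the 4 lowest deciles, and in the highest decile the CpG-poor intergenic peaks reach 66.2% and the promoter peaks 91.7%.

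The member with the best rank in both replicates lay at chr12:59039586-59041589. Its q score was 922 in replicate 1 and 527 in replicate 2, and its log2 ratio 6.30 and 4.75. The nearest curated start site was 20885 bp away, that of Trappc6b, a vesicle trafficking gene, while the small nuclear RNA gene Gm22973, which has no curated transcript, lay inside the peak with its start 252 bp from the midpoint. Small nuclear RNAs are short transcripts of the splicing machinery and related complexes.

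Members 3 to 10 by mean rank scored between 285 and 527 in replicate 1 and between 135 and 227 in replicate 2. At chr10:12867382-12869968 (389 and 140), 6940 bp from the curated start of Utrn, which codes for the cytoskeletal protein utrophin, a predicted Utrn start lay 30 bp from the midpoint. At chr3:88509151-88511070 (308 and 135), 6758 bp from the curated start of the lamin gene Lmna, a further Lmna start lay 178 bp away. At chr18:35872859-35876105 (359 and 151), a GENCODE long noncoding RNA started 168 bp from the midpoint and the nearest curated gene was Cxxc5, 19795 bp away. In all, 5 of the top 10 held a start site of an annotation wider than the curated one.

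The 5 members of the top 10 without such a start site were chr2:18765690-18767708 (q scores 383 and 227, 5837 bp upstream of the noncoding gene Gm3363), chr11:116017520-116022089 (527 and 167), 4700 bp from the histone H3.3 gene H3f3b, chr2:30690159-30695569 (366 and 193), chr15:101245613-101248826 (285 and 200), 19627 bp upstream of the curated start of Nr4a1, an immediate early nuclear receptor gene, and chr14:75833195-75835764 (295 and 154). In the H3f3b member, 51.9% of bases were repeat-masked and 25.5% of the 50-base words around the midpoint had another exact copy in the genome, so that reads of this length cannot all be placed there uniquely.

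Start sites outside the curated set were more frequent among stronger members. A RefSeq predicted or GENCODE transcript started inside 202 members (10.1%), in 31 of the 100 best ranked and in 101 of the 500 best ranked. By quartile of the mean rank, from the best, the share was 20.2%, 9.58%, 5.99% and 4.58%. The median width fell alongside, at 1479, 979, 738 and 584.5 bp, and a wider peak has more room for a start site. The share was 4.68% among the intergenic peaks that were not found in replicate 2, but the score moved with it: among peaks with a replicate 1 q score above 100, 28.1% of 235 members and 27.9% of 136 peaks not found held such a start, and between 60 and 100 the values were 11.1% and 10.7%. Below 40 they were 5.08% and 2.81%. Width was not matched in these bands. Its median was 1691 bp for members and 2374.5 bp for peaks not found above 100. It was 1210 and 1197 bp from 60 to 100, and 562 and 504 bp below 40. Start sites of RefSeq predicted or GENCODE protein-coding transcripts accounted for 57 of the 202.

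Members with such a start were larger and richer in GC. Their median q score was 66.4 in replicate 1 and 52.0 in replicate 2, against 46.3 and 41.9 for the 1803 without one. Their median CpG ratio was 0.349 and 0.360, against 0.251 and 0.25. A GC box (GGGCGG on either strand), common in promoters, lay within 100 bp of the midpoint in 19.3% and 17.8% of them, against 8.54% and 11.04%.

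Small RNA genes of up to 1000 bp overlapped 17 members (0.848%). The share was 0.214% for the intergenic peaks not found and 0.552% for all replicate 1 peaks. Among peaks found in both replicates it was 0.290% for CpG-poor intronic, 1.11% for promoter and 7.69% for CpG-rich distal peaks. Of the 17 members, 10 held a transfer RNA gene and 4 a small nuclear RNA gene. The transfer RNA gene n-TRccg1 lay in the member at chr11:107011262-107013196, with q scores of 215 and 107, and n-TRtct1 in the one at chr19:12008746-12012349, with 123 and 102. Transfer RNA genes and some small nuclear RNA genes are transcribed by RNA polymerase III.

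Members were depleted of repeats at their centre relative to their surroundings. The repeat-masked share, read as the lower-case bases of the reference, had a median of 14.1% over the replicate 1 peak and 13.0% over the replicate 2 peak, or 13.6 ± 0.757% (SD, n = 2). In 500 bp windows, the median was 10.2% and 10.0% around the midpoint. The mean of the 2 windows 1 kb beyond the edges had a median of 28.1% in both replicates. A mean of 2 windows varies less than 1 window, so these medians and the shares below are not like for like. Averaged over members, the masked share was 14.2% in the 200 bp at the replicate 1 midpoint and 30.4% beyond 2 kb. The window around the midpoint was masked less than the mean of its 2 flanking windows in 77.1% and 76.7% of members. This was not particular to members: it held for 72.6% of all replicate 1 peaks and 74.2% of all replicate 2 peaks. The share was 68.2% for the intergenic peaks not found, and 90.0% and 89.4% for promoter peaks found in both replicates. Over chromosomes 1 to 19, X and Y the masked share was 36.4%.

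Few members were repeats. Of the 2005, 695 were masked over at most 10% of their length and 70 (3.49%) over more than 50%, while 91 held no masked base. The median masked share of members rose with the replicate 1 q score. It was 12.0% up to 40, 14.1% from 40 to 60, 15.2% from 60 to 100 and 17.6% above 100. Members masked over more than 50% of their length became rarer, from 4.62% up to 40 to 0.851% above 100. The most masked members were weak. They lay at chr13:74529285-74529782 (100% masked, q scores 32.6 and 31.9, nearest gene Zfp825), chr15:102290498-102291305 (95.2%, 38.9 and 31.2, nearest Espl1) and chr6:134969796-134970280 (94.0%, 35.7 and 31.9, nearest Apold1). The strongest members without a masked base lay at chr16:94472438-94473453 (q scores 58.7 and 32.8, nearest Vps26c), chr2:181071796-181072761 (56.4 and 43.2, nearest Chrna4) and chr2:26609003-26610071 (55.6 and 36.5, nearest Agpat2).

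The intergenic peaks that replicate 2 lacked had a similar median masked share of 14.6% but were more often mostly repeat, with 8.10% masked over more than 50% of their length. In peaks with a q score up to 40, these shares were 4.62% of members and 9.68% of peaks not found, and above 100 they were 0.851% and 1.47%. CpG-poor intronic peaks found in both replicates were masked over a median of 11.5 ± 0.317% (SD, n = 2), but their flanks were also less masked, with a median of 19.95% and 20.2%. Because the members were selected for a low CpG ratio, composition at the midpoint is partly fixed by the rule. Their median GC content was 51.8% in both replicates, against 47.1% and 47% in the flanks, and the CpG ratio 0.260 and 0.258, against 0.191 and 0.194.

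**Figure D3:**
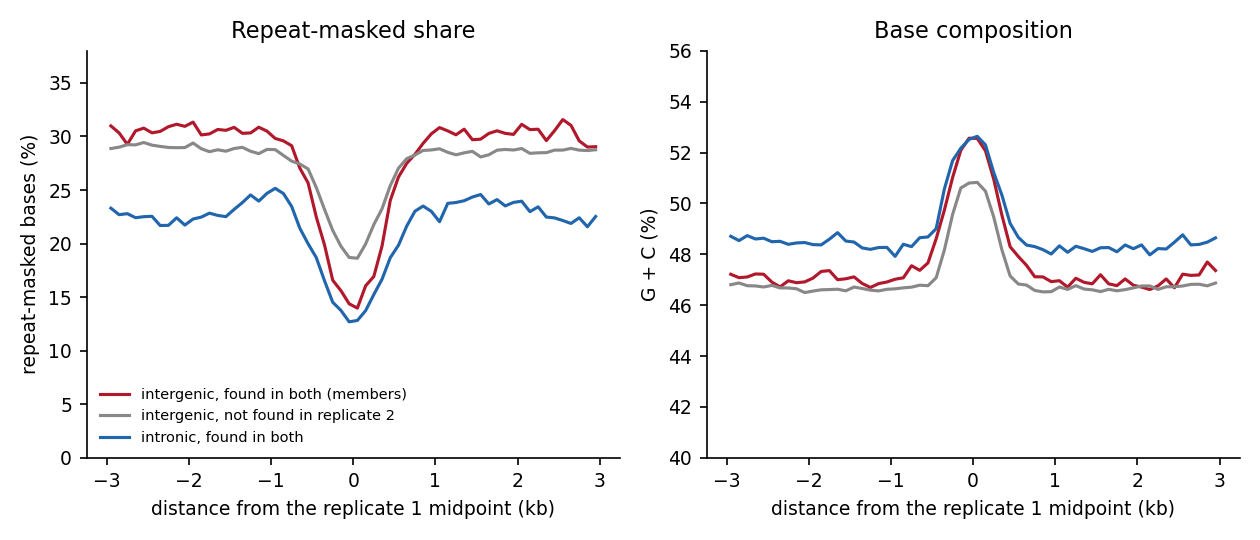
Repeat-masked share (left) and GC content (right) in 100 bp steps to 3 kb either side of the replicate 1 midpoint, for members, CpG-poor intergenic peaks not found in replicate 2 and CpG-poor intronic peaks found in both. The 200 bp at the centre of the members were 14.2% masked with 52.6% GC, and the sequence beyond 2 kb 30.4% masked with 47.03% GC. The vertical axis at right starts at 40%.

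Most members lay within 50 kb of a gene's start. The median distance from the midpoint to the nearest curated start site was 17866 bp for the replicate 1 midpoints and 17929 bp for those of replicate 2 (quartiles 8384 and 36495 bp in replicate 1). There were 224 members at up to 5 kb, 391 at 5 to 10 kb, 472 at 10 to 20 kb, 564 at 20 to 50 kb, 12.8% of all at 50 to 100 kb and 98 beyond 100 kb. Peaks not found in replicate 2 lay farther over all scores, at a median of 21568 bp, and 10.4% of them were beyond 100 kb against 4.89% of members. Within peaks that scored 60 to 100 the medians were 17020 bp and 17222.5 bp, and within those up to 40 they were 19756 bp and 22708 bp. Above 100 the order turned, with 15776 bp for members and 13348 bp for peaks not found.

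The farthest member lay 581449 bp upstream of Klf4, a pluripotency-associated transcription factor gene, at chr4:56113505-56114343, with q scores of 51.4 and 37.7. The next farthest were chr14:58607549-58608196, 535021 bp from 1700129C05Rik, and chr14:100749640-100750936, 449781 bp from Prr30, with q scores of 117 and 56.9. The nearest lay 2333 bp from Speer9-ps1, 2378 bp from 1810037I17Rik and 2423 bp from Gtf3c5, a gene of the RNA polymerase III factor TFIIIC. The midpoint was upstream of the nearest gene in 61.4% of members and 62.1% of peaks not found. The nearest gene was protein-coding for 1603 members, a long noncoding RNA for 308 and a microRNA for 67.

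**Figure D4:**
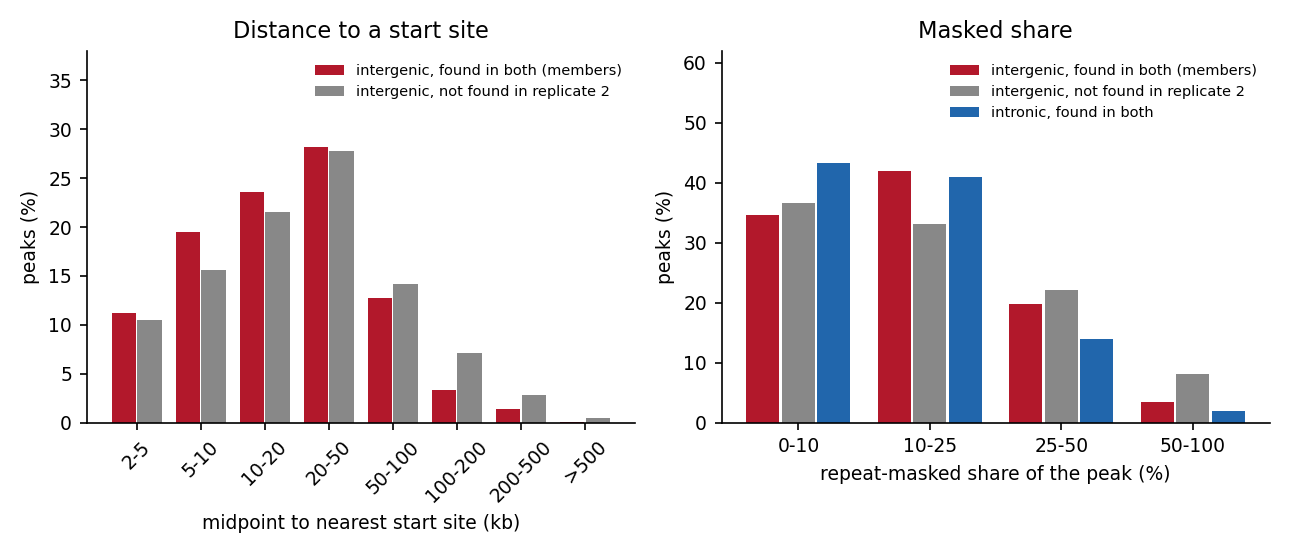
Share of peaks by distance from the replicate 1 midpoint to the nearest RefSeq curated start site (left) and by repeat-masked share of the peak (right). The bin of 20 to 50 kb holds the most members (28.1%), but the distance bins differ in width. Of the members, 3.49% are masked over more than 50% of their length, against 8.10% of the intergenic peaks not found in replicate 2.

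The 2005 members had 1637 different nearest genes, 6.25% of the 26180 curated genes. Of these, 1371 were nearest to a single member and 64 to 3 or more. A330074K22Rik, a noncoding gene, had 6 members, 48431 to 103585 bp from its start, with q scores of 34.6 to 149 in replicate 1. The 10 genes with 5 members each were Lrrc74a (highest q score 226), Wasf2, an actin regulator (134), the noncoding genes 5830428M24Rik (112), 9430078K24Rik (105), A630001O12Rik (81.6), E330017L17Rik (77.3) and 8430430B14Rik (69.6), Spring1, a regulator of the SREBP pathway (95.9), Terc, the telomerase RNA (73.5), and Max, which codes for the partner of MYC (68.4). The values in parentheses are the highest q score in replicate 1. A further 15 genes had 4 members and 38 had 3.

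Some members stood in groups. Joined across gaps of up to 12494 bp, 441 members (22.0%) fell into 187 groups of 2 or more, of which 47 held 3 or more and 4 held 5. The groups of 5 were chr18:35861543-35899578 near Cxxc5 and C330008A17Rik, chr2:30757622-30792539 near 1700001O22Rik and Mir3089, chr4:133083780-133119858 near Wasf2, and chr3:96396113-96419432 around Terc. The Wasf2 group scored 65.1 to 134 in replicate 1 and 35.2 to 87.7 in replicate 2. In the Terc group, the scores were 34.1 to 73.5 and 35.96 to 68.7, and 1 member was masked over 75.8% of its length. The nearest peak of any kind found in both replicates lay a median of 15728 bp away, and 37.7% of members had one within 10 kb.

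Genes near members often had a shared promoter peak as well. A promoter peak found in both replicates lay at 860 of the 1637 nearest genes (52.5%) and at 791 of the 1332 protein-coding ones (59.4%), against 42.8% of all curated genes and 48.0% of all protein-coding genes. For the protein-coding genes nearest to intergenic peaks not found in replicate 2 the share was 55.6%, and for those nearest to CpG-poor intronic peaks found in both it was 63.2%. The nearest gene is a matter of position and need not be the gene a region acts on.

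Gene lists of the testis and of SOX3 were compared by the nearest gene. Of 150 listed genes, 24 (16.0%) were nearest to a member, through 32 members, against 6.25% of all curated genes and 6.34% of protein-coding genes. By list the counts were 2 of 25 genes of stem cell self-renewal, 3 of 20 of progenitors and differentiation, 2 of 19 of meiosis and spermatids, 7 of 20 of Sertoli cells, 3 of 12 of Leydig cells, 0 of 8 of peritubular cells, 2 of 10 of endothelium, 3 of 15 SOX genes, 2 of 20 neural genes and 1 of the 4 genes that the study discusses with SOX3. Listed genes were also nearest to CpG-poor intergenic peaks not found in replicate 2, such as 46 for Sertoli and 45 for progenitor genes. By list, the share of such peaks found ran from 0% (peritubular) to 25% (SOX genes), against 12.2% of all. It was 19.3% for Sertoli, 10.3% for stem cell and 8.16% for progenitor genes. The lists were made with earlier results of these data known, and no test was made of these counts.

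On the stem cell and progenitor lists, Neurog3, a bHLH factor of differentiating progenitors, had a member 4074 bp upstream at chr10:62128111-62129922. The q scores of this member were 80.9 in replicate 1 and 75 in replicate 2, and the log2 ratio was 3.87 and 4.25. Zbtb16, a factor of stem cell maintenance, had members 12024 and 24118 bp upstream. They lay at chr9:48847712-48848787 (q scores 66.2 and 36.5) and chr9:48859836-48860850 (63.98 and 46.9), and both held the SOX consensus printed above. Foxo1, which supports stem cell maintenance, had a member 12423 bp upstream with q scores of 60.2 and 58.4. Nanog, a pluripotency gene on the progenitor list, had one 4705 bp upstream with 67.8 and 53.8, with flanks masked over 78.9%. The paper reports that adult undifferentiated spermatogonia lack Nanog. Tcf3, which codes for a partner of bHLH factors, had a member 9676 bp upstream with 46.5 and 30.5 and another with 45.5 and 37.6.

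Sertoli genes had 11 members in all. Gata4, a gonadal transcription factor, had a member 26061 bp upstream of its curated start at chr14:63270366-63272299, with q scores of 142 and 65.7, and a predicted Gata4 start lay 199 bp from the midpoint. Inhbb, an inhibin and activin subunit, had members at chr1:119385810-119387244 (q scores 91.8 and 55.5) and chr1:119446024-119446930 (59.7 and 30.5). Dhh, the hedgehog ligand of Sertoli cells, had a member 4806 bp upstream with 90.3 and 51.8. Sox9, the Sertoli fate factor, had neighbouring members 9484 and 11636 bp upstream, with 71.6 and 70.1 and with 53.2 and 64.04. Inha, the inhibin alpha gene, had one 4267 bp downstream of its start with 70.7 and 52.8. The members near Clu (43.3 and 53.8, and 34.6 and 35.2) and Ptgds (34.1 and 31.2) were weaker.

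Other listed genes had scores of the same range. Nes, an intermediate filament gene of neural progenitors, had a member 10676 bp upstream with q scores of 183 and 75.7, in which a predicted noncoding RNA started 177 bp from the midpoint. Sox4, a gene of a related family member, had one 5333 bp upstream with 157 and 80.1, and the other SOX genes were Sox13 (134 and 52.0 for the stronger of its pair) and Sox12 (113 and 44.2). Endothelial Sox18 had one 4037 bp upstream with 138 and 58.9, and Flt1, a VEGF receptor, one with 59.7 and 35.2. Lhcgr, the LH receptor of Leydig cells, had one 174104 bp upstream with 49.6 and 58.5. The remaining listed genes, Pdgfra, Tnp1, Hes1, Cyp11a1 and Spo11, had members with replicate 1 scores of 33.0 to 43.3.

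The SOX consensus was as frequent beside the members as in them, without allowance for base composition. It is mostly A and T, while the midpoint windows were richer in GC than the flanks. WWCAAWG lay within 100 bp windows around the midpoint in 11.4% of members in both replicates and in 11.05 ± 0.635% (SD, n = 2) of windows 1 kb beyond the edges, a difference of 0.374 ± 0.635 percentage points. In 200 bp windows it was in 20.9% and 20.6% of members and in 21.4% and 22.4% of flanking windows. Over all peaks of each list it was in 16.0 ± 0.864% of 200 bp midpoint windows and 21.8 ± 0.125% of flanks. In CpG-poor intronic peaks found in both replicates it was in 21.01 ± 0.205% and 19.7 ± 0.103%. In the best ranked quartile of the members the share was 19.6% at the midpoint and 23.2% in the flanks. In the lowest quartile it was 21.5% and 20.3%, but the midpoint share did not move steadily with the score. It was 21.4% of members up to 40, 21.2% from 40 to 60, 23.7% from 60 to 100 and 13.6% above 100 in replicate 1, where it was 22.1% of the intergenic peaks not found.

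Some other words were more frequent at the midpoint than beside it and some were not. This panel was chosen after the lists were seen, it was searched on both strands of 200 bp windows, and the higher GC content at the midpoint favours GC-rich words. The GC box GGGCGG was in 9.63% and 11.7% of members and in 3.54% and 3.14% of flanks. The ETS word CCGGAAG was in 2.54% and 2.64% against 0.823% and 0.599%, and AGGGGGC, part of the CTCF motif, in 6.03% and 5.79% against 3.22% and 2.92%. The E-box CAGCTG was in 14.9% and 15.8% against 10.2% and 9.60%. TGASTCA (S is C or G), the AP-1 site, was in 4.64% and 4.79% against 3.62% and 3.67%. TGTGGTT, the RUNX site, was less frequent at the midpoint, in 3.34% and 3.14% against 6.43% and 5.86%. The GATA site WGATAA was in 15.1% and 14.6% against 16.2% and 14.9%, CCAAT, the NF-Y site, in 21.9% and 21.7% against 22.3% and 24.1%, and the DMRT word TGTATCA in 2.19% and 1.95% against 2.24% and 1.95%. The CREB word TGACGTCA was in 0.249% and 0.299% against 0.274% and 0.324%. The GC box, ETS, CTCF, E-box, AP-1 and RUNX words differed in the same direction in the intergenic peaks not found. There the E-box was in 15.2% of midpoint windows and 10.03% of flanks, AP-1 in 4.60% and 3.77%, and RUNX in 4.10% and 5.62%. The GC box was in 6.08% and 3.22%, ETS in 1.55% and 0.852%, and the CTCF word in 4.13% and 2.62%. In CpG-poor intronic peaks found in both replicates the E-box was in 19.2 ± 0.205% and 10.8 ± 0.188% (SD, n = 2).

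CAAGGTCA, the monomer site of SF1 (NR5A1, the regulator of steroidogenic and Sertoli genes) and related nuclear receptors, was in 3.09% and 2.94% of members and in 1.397% and 1.995% of flanks. Over all peaks of the lists it was in 1.80 ± 0.154% of midpoint windows and 1.60 ± 0.0159% of flanks, and in the intergenic peaks not found in 2.23% and 1.68%. In CpG-poor intronic peaks found in both replicates it was in 3.63 ± 0.685% of midpoint windows and 1.66 ± 0.154% of flanks (SD, n = 2), beside 3.02 ± 0.106% and 1.70 ± 0.423% for the members. In the members without a start site of a wider annotation the shares were 3.27% and 3.22% against 1.41% and 1.997%. By replicate 1 q score, it was in 4.31% of members and 2.22% of peaks not found up to 40. The 2 shares were 2.55% and 2.20% from 40 to 60, 2.66% and 2.60% from 60 to 100, and 2.13% and 2.21% above 100. The 30 bases around the word follow for 4 of the 62 members that hold it by the replicate 1 midpoint. They lie near the Sertoli genes Inhbb and Ptgds and in the groups near Lrrc74a and 5830428M24Rik. As examples, they do not show how often the word lies near Sertoli genes. The forward strand is shown, with CAAGGTCA or its complement TGACCTTG in capitals. In the Inhbb member the word overlaps the SOX match printed above.
Inhbb, chr1:119386459-119386488: cagttcatcaaTGACCTTGgtaagtctgtg
Ptgds, chr2:25478600-25478629: ttgctctctctTGACCTTGaatgtagccct
Lrrc74a, chr12:86801977-86802006: ggcctggggccCAAGGTCAtctgcagagac
5830428M24Rik, chr12:69502351-69502380: ctttctcagcgCAAGGTCAcacttttctct

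**Figure D5:**
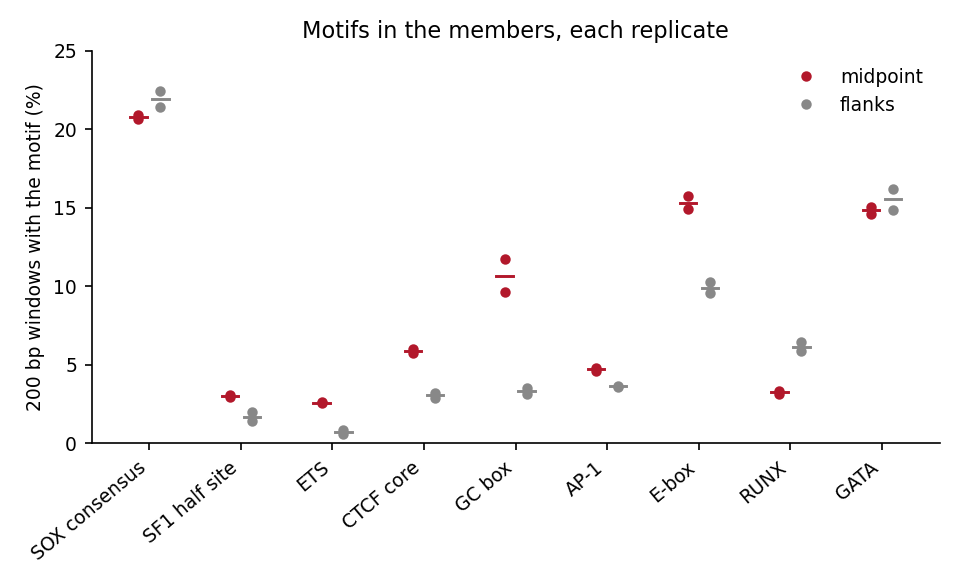
Share of members with a motif in 200 bp around the midpoint (red) and 1 kb beyond the edges (grey), with 1 point per replicate and a bar at the mean (n = 2). The SOX consensus lies at 20.6% to 20.9% at the midpoint and 21.4% to 22.4% in the flanks, whereas the E-box and the GC box are higher at the midpoint.

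ChIP-nexus, which was independent of the rule, had few peaks. Its libraries held far fewer unique reads than those of SOX3 ChIP-seq, per the study's reporting summary. A lack of overlap therefore says little about a member. Overlap of 1 bp or more was found for 2 of the 2005 members (0.0998%, exact 95% interval 0.0121% to 0.360%, counting error only), against 0.0857% of all replicate 1 peaks and 0.287% of those found in replicate 2. Both overlaps were with ChIP-nexus replicate 1 and none with replicate 2. The strongest member, at chr12:59039586-59041589, held a ChIP-nexus peak with a fold enrichment of 4.83 and a −log10 q of 4.84. The other, at chr3:96485481-96486384 (q scores 156 and 66.3), touched one with a fold enrichment of 19.97 and a −log10 q of 42.0, and 70.1% of the 50-base words around its midpoint had another exact copy in the genome. The nearest curated gene was the U1 gene Rnu1b6, 25743 bp away.

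The members rarely lay in sequence that 50-base reads cannot place. A mean of 1.03% (replicate 1) and 1.13% (replicate 2) of the 50-base words around the midpoint had a further exact copy in the genome. Any such word was in 11.7% and 12.47% of members, near the 11.8% and 10.9% of all peaks of each list. The share was 16.4% of the intergenic peaks not found, and 7.99% and 9.34% of CpG-poor intronic peaks found in both replicates. A value above 50% was seen in 2 members by the replicate 1 midpoint and 4 by that of replicate 2.

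The peaks nearest to each limit of the rule were as follows. The CpG ratio was 0.599 in the member just inside, near Shisa4 (q scores 78.7 and 55.5), and 0.6005 in the peak just outside, near Suox (77.3 and 58.4). The edge lay 2027 bp from a start site in the closest member, at Id2 (321 and 130), and 1975 bp in the peak just outside, at Epop (43.9 and 34.5). The covered share was 50% in the last member, near Myo5b (31.0 and 42.1), and 49.98% in the peak just outside, near E130018N17Rik, which had q scores of 94.5 and 58.4.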

How the data were processed

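Peaks came from the lists deposited for SOX3 ChIP-seq (2 replicates) and ChIP-nexus (2 replicates) of postnatal day 7 testis. The 15 other samples were not used here. The authors aligned reads to mm10 with Novoalign, placing reads that fit several sites at random, removed duplicates with Picard, and called ChIP-seq peaks per replicate with USeq. As deposited, the ChIP-seq lists name no columns. From the caller's layout the deposited columns were read as the authors' p score and q score (10 times a negative log10, above 30) and log2 ratio of ChIP over input. The ChIP-nexus lists, deposited in MACS format (2.1.1), give a score, a fold enrichment and −log10 p-values and q-values. The lists hold no read counts. The study's reporting summary gives the depth, with far fewer unique reads for SOX3 ChIP-nexus than for SOX3 ChIP-seq. No test of replicates was made.

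Overlaps, distances and sequence were computed with Python 3.11.15, numpy 2.4.6 and pandas 2.3.3 on GRCm38 with 45756 RefSeq curated transcripts of 26180 genes, RefSeq predicted models and GENCODE M21. Masked bases are the lower-case letters of the NCBI sequence. The program that set them is not given in the sources used here. Small RNA genes are RefSeq and GENCODE tRNA, snRNA, snoRNA and similar genes of at most 1000 bp. A word copy is an exact match of 50 bases on either strand. The overlap code was tested on simulated data and with bedtools 2.31.1, and found 600 of 600 planted overlaps among 2000 peaks. Values are given per replicate, or as mean ± SD over both. Named regions were the 10 best by mean rank, those overlapping ChIP-nexus, those nearest to listed genes, the extremes of distance and masked share, and those at each limit, and named genes were those with most members, at most 10, and Max, which tied with the last of them. 1 of the 10 best by rank is not reported here. The members, lists and alternatives were chosen with earlier results of these data known. The motifs other than the SOX words and the alternative that leaves out predicted and GENCODE genes were chosen after seeing the data.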

Additional observations from a re-analysis of the deposited data

How the results depend on the processing

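Of 105 alternatives, 61 moved a value by less than its replicate spread or interval (for the number of members, by less than 1.5 times) and 44 by more. For distance, masked share and sequence, this spread is between the 2 calls of the same regions. A small change can thus count as a move, and the tally is not a measure of robustness. The cause of the moves was not tested, and those from stricter limits use fewer regions. The number of members (2005) was 3237 with an overlap of 1 bp, 831 with 80% and 254 with q scores above 60 in both replicates. Taking 1 replicate alone gave 10064 to 16502. The median q score (45.1) was 95.6 with scores above 60, and 36.5 to 37.9 with 1 replicate left out. The median masked share (13.6%) was 15.4% with scores above 60, 10.1% in the 500 bp window, and 13.5% to 14.5% with 1 replicate left out. The median distance (17897.5 bp) was 17404.5 bp with 1 bp overlap, 17816.5 bp with a CpG limit of 0.5, 21580 bp with a minimum of 5 kb, 15979 bp with scores above 60, 16191 bp drawn from replicate 2, 17320 bp outside every RefSeq and GENCODE gene, 20675.5 bp to protein-coding starts, and 21006 to 22457.5 bp with 1 replicate left out. The SOX consensus difference (0.374 points) had no stable sign: it was 1.90 with 80% overlap, -1.77 with scores above 60, -0.294 drawn from replicate 2, -1.16 in 200 bp windows, -0.599 for GWAACWW, and -1.56 to -0.467 with 1 replicate left out. The share of copied words (1.08%) was 1.17% with 1 bp overlap, 1.01% with 80%, 1.18% with a CpG limit of 0.75, 0.958% with 5 kb, 0.971% with scores above 60, 0.993% with GENCODE, 2.28% for 36-base words, and 1.38% with either replicate left out. The ChIP-nexus overlap (0.0998%) was 0.787% with scores above 60, 0% with GENCODE, and 0.0298% to 0.0303% with 1 replicate left out. The ratio of X to autosome density (0.118) was 0.0585 to 0.0867 with 1 replicate left out. The share of CpG-poor intergenic peaks found (12.2%) was 19.6% with 1 bp overlap, 5.04% with 80%, 14.9% with scores above 60 and 27.01% drawn from replicate 2.

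Replicate numbers are shared by ChIP-seq and ChIP-nexus, but nothing in the labels says that they pair the samples. With the replicate as a block, the share of members overlapping ChIP-nexus was 0.0998% for replicate 1 and 0% for replicate 2. No other paired analysis was possible because the other values come from no test.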

Other observations

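Members were sparse on the X chromosome. There were 16 on X and 2 on Y, and the density was 0.0979 per Mb of ungapped X sequence against 0.829 per Mb of autosomes, a ratio of 0.118 (exact 95% interval 0.0673 to 0.192, counting error only). The ratio was 0.0823 for the CpG-poor intergenic peaks not found in replicate 2, 0.0427 for CpG-poor intronic and 0.354 for promoter peaks found in both replicates, and 0.158 for all replicate 1 peaks. The densities were not adjusted for the lower copy number of X and Y in male cells, whose effect was not tested. The share of CpG-poor intergenic peaks found was 16.5% on X. Among autosomes, the density ran from 0.516 per Mb on chromosome 16 to 1.47 on chromosome 11, which had 175 members, while the share found ran from 10.2% to 15.2%.

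Simple tandem repeats of at least 24 bp with units of 1 to 6 bases lay in the 500 bp around the midpoint of 7.13% and 6.93% of members, against 16.2% and 16.6% of flanking windows. This was not particular to members. The shares were 8.73% and 15.3% for the intergenic peaks not found, and 6.51% and 12.5% for all replicate 1 peaks. The AC repeat was the most frequent, in 61 members.

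Members more than 50 kb from a start site differed little from the nearest ones in score: the 354 at that distance had median q scores of 44.8 and 40.9, and the 615 within 10 kb 48.6 and 43.3. Their masked share was 10.96% against 15.8%, and the SOX consensus lay in 24.01% against 19.02% of their 200 bp midpoint windows. The best ranked quartile of all members had a median CpG ratio of 0.316 and a width of 1479 bp, against 0.234 and 584.5 bp in the lowest. These values come with the same peak calls that chose the members and were not tested.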
